A study of Mus musculus with 21 samples.

Results

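Txnip and 6 genes of the thioredoxin system and its partner peroxidases were followed in mouse CD8 T cells, namely Txn1, Txnrd1, Prdx1, Prdx2, Gpx1 and Gpx4. The members were chosen by name, and all 7 were present among the 17516 gene symbols of every count table. RNA of single cells was measured in 21 libraries of OT1 T cells, which carry a transgenic T cell receptor for an ovalbumin peptide. The 1 naive library was taken on day 0 without treatment. All 20 other libraries came from naive cells activated with beads coated with antibodies against CD3 and CD28, which engage the receptor complex and its costimulator. Of these, 2 received no added cytokine and were sampled on days 3 and 5. The remaining 18 received IL-2, IL-15 or IL-2v at 5 or 50 IU/mL and were sampled on days 3, 5 and 10. IL-2v is a variant that the treatment labels name as mutant IL-2bg. Each condition was 1 library, so there was no replicate, no test of a condition, and every interval given here covers counting error only. The treatment labels of 6 libraries disagree with their titles: those titled as IL-2 at 50 IU/mL name interleukin-3, and those titled as IL-15 at 50 IU/mL name interleukin-16. The titles were used. The extraction protocol describes sorting of tumour-infiltrating cells, whereas the growth protocol and every sample label describe these bead cultures.

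Thioredoxin, the product of Txn1, is a small cytosolic protein that reduces disulfides in other proteins, and thioredoxin reductase 1, the selenoprotein made from Txnrd1, returns it to its reduced form with NADPH. Peroxiredoxins such as those of Prdx1 and Prdx2 break down hydrogen peroxide and depend on thioredoxin for electrons, whereas the glutathione peroxidases of Gpx1 and Gpx4 draw them from glutathione. TXNIP, an alpha-arrestin, binds reduced thioredoxin and also promotes the removal of glucose transporters from the cell surface. Its gene is a known target of the glucose-sensing MondoA and Mlx pair of transcription factors, and proliferating T cells are known for high glucose uptake.

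Txnip, the member with the widest range in these libraries, lies on chromosome 3 (GRCm38, 96557957 to 96561883, plus strand). Txn1 lies on chromosome 4 (57943373 to 57956411, minus strand) and Txnrd1 on chromosome 10 (82833951 to 82897712, plus strand). Prdx1 lies on chromosome 4 (116685544 to 116700822, plus strand) and Prdx2 on chromosome 8 (84969587 to 84974834, plus strand). Gpx1 lies on chromosome 9 (108338903 to 108340343, plus strand) and Gpx4 on chromosome 10 (80047166 to 80056439, plus strand). All 7 are protein-coding genes. The promoters of Txnip, Txnrd1 and Prdx1 are shown because Txnip had the widest range of the members, and because Txnrd1 and Prdx1 shared some signs. Both were higher with IL-2v than with IL-2 in 6 of 6 pairs, as were 17.0% of genes. The smallest of these Txnrd1 differences was within counting error. Both were higher in cycling cells of 20 of 21 libraries, against 19 for Gpx4 and 17 for Txn1. There 13.2% of genes had a higher median than Prdx1 and 21.2% than Txnrd1. In other comparisons Txnrd1 and Prdx1 differed in sign. The 250 bases before a RefSeq start site (GRCm38.p6) are given 5′ to 3′ on the gene's strand.
Txnip: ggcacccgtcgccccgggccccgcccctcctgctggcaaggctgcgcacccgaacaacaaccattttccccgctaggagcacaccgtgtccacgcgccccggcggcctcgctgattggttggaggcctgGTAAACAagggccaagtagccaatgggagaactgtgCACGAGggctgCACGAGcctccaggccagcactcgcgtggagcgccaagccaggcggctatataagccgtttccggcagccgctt
Txnrd1: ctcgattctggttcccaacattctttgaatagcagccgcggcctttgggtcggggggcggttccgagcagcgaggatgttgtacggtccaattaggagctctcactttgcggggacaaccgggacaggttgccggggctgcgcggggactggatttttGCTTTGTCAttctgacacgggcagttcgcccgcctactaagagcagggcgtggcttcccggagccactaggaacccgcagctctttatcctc
Prdx1: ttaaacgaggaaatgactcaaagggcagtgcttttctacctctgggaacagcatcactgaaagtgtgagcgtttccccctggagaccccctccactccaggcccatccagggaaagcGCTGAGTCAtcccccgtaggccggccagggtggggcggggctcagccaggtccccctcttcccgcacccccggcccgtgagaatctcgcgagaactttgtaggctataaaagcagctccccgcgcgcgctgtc
These windows are chr3:96557707-96557956, chr10:82858956-82859205 and chr4:116685349-116685598, all on the plus strand, and the Txnrd1 window is that of the second start site listed for the gene. It alone of the Txnrd1 windows holds the antioxidant response element core named next, and the windows of the other two start sites have no match. Capitals mark matches, on either strand, to motifs chosen with knowledge of these genes: the E-box-like hexamer CACGAG, the forkhead core GTAAACA and the antioxidant response element core TGACNNNGC. In the Txnip window, CACGAG began 85 and 74 bases before the start, a spacing written as CACGAGNNNNNCACGAG, and GTAAACA began 121 bases before it. E-box-like motifs paired at this spacing are the known form of a carbohydrate response element. That spaced pair was found in 1 of 32851 RefSeq windows of 300 bases (250 before to 50 after the start), which is 0.00304%, and that window was the one of Txnip. The pair was searched with the exact letters of the Txnip window, so the match there was fixed in advance. Carbohydrate response elements with other letters were not counted, and the share does not measure how rare such elements are. Single CACGAG matches were present in 6.47% of the windows and GTAAACA in 3.65%. TGACNNNGC, the motif of the NRF2 factor, was found in 12.4% of windows. It was read on the opposite strand in both Txnrd1 (GCTTTGTCA, 92 bases before the start) and Prdx1 (GCTGAGTCA, 133 bases before), and in Prdx1 the match holds TGAGTCA, the AP-1 motif. The canonical E-box CACGTG, present in 7.15% of windows, was in no window of the members. Only Txnip, Txnrd1 and Prdx1 among the members had a match to any of these motifs. Because the motifs were chosen with knowledge of these genes, that overlap with the genes shown carries no information on their levels. The windows of Txn1, Prdx2, Gpx1 and Gpx4 had none. Across the 12 windows of the members, TGACNNNGC was in the Txnrd1 and Prdx1 windows shown and in no other. A match is a description of letters and not of binding.

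Summed UMIs, the tags that mark single captured RNA molecules, ran from 10589950 to 32648496 per library, over 3250 to 7105 cells with median depths of 3016 to 5065 UMIs. The shallowest library by both measures was that of 50 IU/mL IL-2 on day 5. Cd3d was detected in 93.0% to 99.5% of cells, Cd3g in 78.9% to 97.2% and Cd3e in 72.0% to 92.8%. Of the CD8 chains, Cd8b1 was detected in 54.5% to 92.0% and Cd8a in 37.0% (50 IU/mL IL-2, day 5) to 74.2%. Trac was detected in 56.4% to 78.6%, Cd4 in at most 1.49% and the haemoglobin gene Hbb-bt in at most 0.835%. The B cell marker Ms4a1 was detected in at most 0.0209% and the myeloid marker Lyz2 in at most 0.126%. Other markers of these lists were seen more often, with Cd79b in 0.727% to 7.45% of cells (highest with 5 IU/mL IL-15 on day 3), Cd68 in 0.385% to 7.39% (highest with 50 IU/mL IL-2 on day 10) and the NK marker Klrb1c in 0% to 13.0% (highest with 50 IU/mL IL-2v on day 10), while Ncr1 was in at most 0.0157%. Their part in the results was not tested. Any pair of libraries shared 1 to 19 cell barcodes, at most 0.340%. In summed data, fewer cells with a transcript and less transcript per cell cannot be told apart. Shares of cells are therefore given beside the levels for Txnip, whereas the other members are given as summed levels alone. Levels are CPM, that is UMIs of a gene per 1000000 UMIs of the library, with exact Poisson 95% intervals. Levels are compared within a gene and not between genes.

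Txnip spanned a 9.17-fold range over the 21 libraries, or 3.17 on the log2(CPM + 1) scale used for all differences. The median gene spanned 1.34 on that scale, and 8.12% of the 5495 genes compared spanned more than Txnip. Txnip was highest with 5 IU/mL IL-2 on day 5, at 517 CPM (507 to 527). Next in order came 50 IU/mL IL-15 on day 10 (427 CPM), 5 IU/mL IL-15 on day 10 (411), 5 IU/mL IL-2 on day 10 (394), 50 IU/mL IL-15 on day 5 (381) and 5 IU/mL IL-2v on day 5 (346). Naive cells had 314 CPM (306 to 322), within the range of the activated libraries. Below them stood 5 IU/mL IL-15 on day 5 (303 CPM), no cytokine on day 5 (289), 5 IU/mL IL-15 on day 3 (278) and no cytokine on day 3 (273). The lower levels began with 50 IU/mL IL-2 on day 5 (232 CPM), 5 IU/mL IL-2 on day 3 (231), 50 IU/mL IL-15 on day 3 (217) and 5 IU/mL IL-2v on day 3 (199). The low end held 4 IL-2v libraries and 2 of IL-2: 50 IU/mL IL-2v on day 10 (192 CPM) and day 5 (187), 5 IU/mL IL-2v on day 10 (178), 50 IU/mL IL-2 on day 10 (140.5), 50 IU/mL IL-2v on day 3 (102) and 50 IU/mL IL-2 on day 3 (56.3, interval 52.8 to 60.1). No IL-15 library was below 217 CPM, and the 6 IL-15 libraries had a median of 342 CPM against 232 for IL-2 and 189.5 for IL-2v.

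Of the 20 neighbouring steps in that order, 8 had overlapping intervals and so were not separated beyond counting error. These were 5 IU/mL IL-2 on day 10 with 50 IU/mL IL-15 on day 5, 5 IU/mL IL-15 on day 5 with naive cells, the run from no cytokine on day 5 through 5 IU/mL IL-15 on day 3 to no cytokine on day 3, 50 IU/mL IL-2 on day 5 with 5 IU/mL IL-2 on day 3, and the run of 4 IL-2v libraries between 199 and 178 CPM. The spread between repeat cultures was not measured.

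**Figure D1:**
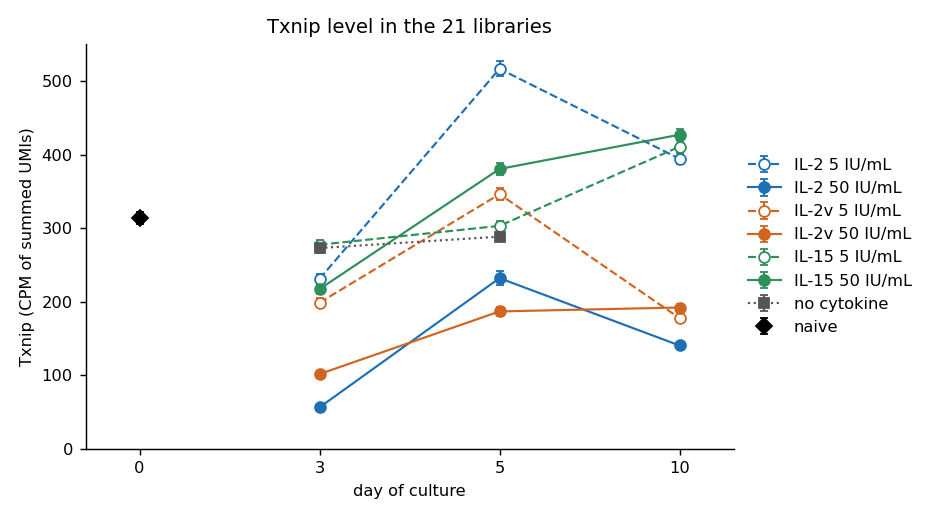
Txnip level (CPM of summed UMIs, vertical axis) against day of culture (days evenly spaced) for the 21 libraries. Points are single libraries, bars are exact Poisson 95% intervals, open circles with dashed lines are 5 IU/mL and filled circles with solid lines 50 IU/mL. The 50 IU/mL IL-2 and IL-2v libraries lie between 56.3 and 232 CPM on every day, below their IL-15 counterparts at 217 to 427 CPM.

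For shares of cells with a Txnip UMI, each cell was thinned to 2000 UMIs, which left out 57 to 393 cells per library. The share was lowest with 50 IU/mL IL-2 on day 3, at 9.26% (exact Clopper-Pearson 95% interval 8.30 to 10.3), and with 50 IU/mL IL-2v on day 3, at 18.3%. It was highest with 5 IU/mL IL-2 on day 5, at 63.1% (61.7 to 64.5), and 50 IU/mL IL-15 on day 10 gave 57.1%. Naive cells gave 44.7% and cells without cytokine 42.6% on day 3 and 42.7% on day 5. The median share over libraries was 42.6%, against 24.9% at 1000 UMIs and 63.9% without thinning. No cell type that should lack Txnip was present, so the share that free RNA gives was not measured.

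The other members varied less. Txn1 ranged from 125 CPM in naive cells to 662 with 5 IU/mL IL-2v on day 10, a 5.28-fold span, and 15.0% of genes spanned more. Prdx1, a cytosolic peroxiredoxin, ranged from 133 CPM (50 IU/mL IL-2, day 5) to 433 (5 IU/mL IL-2v, day 10), and its relative Prdx2 from 81.8 CPM in naive cells to 251 with 5 IU/mL IL-2 on day 3. Gpx4, which reduces lipid peroxides and protects cells from ferroptosis, ranged from 188 CPM in naive cells to 539 with 50 IU/mL IL-2 on day 10. Gpx1, the abundant cytosolic glutathione peroxidase, ranged from 66.1 CPM (5 IU/mL IL-2v, day 3) to 146 in naive cells. Txnrd1 ranged from 32.6 CPM (no cytokine, day 3) to 67.6 (5 IU/mL IL-2v, day 10), a 2.07-fold span that 73.3% of genes exceeded. Intervals of neighbouring libraries in the order of levels overlapped in 19 of 20 steps for Txnrd1, 18 for Gpx1, 14 for Prdx1, 12 for Prdx2, 11 for Txn1 and 10 for Gpx4. The library of 5 IU/mL IL-2v on day 10 was the highest for Txn1, Txnrd1 and Prdx1. For Txn1 and Prdx1 its interval did not overlap that of the next library. For Txnrd1 its interval (64.8 to 70.5 CPM) overlapped those of 50 IU/mL IL-2v on day 3 (61.0 to 67.5) and day 5 (60.5 to 67.3).

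**Figure D2:**
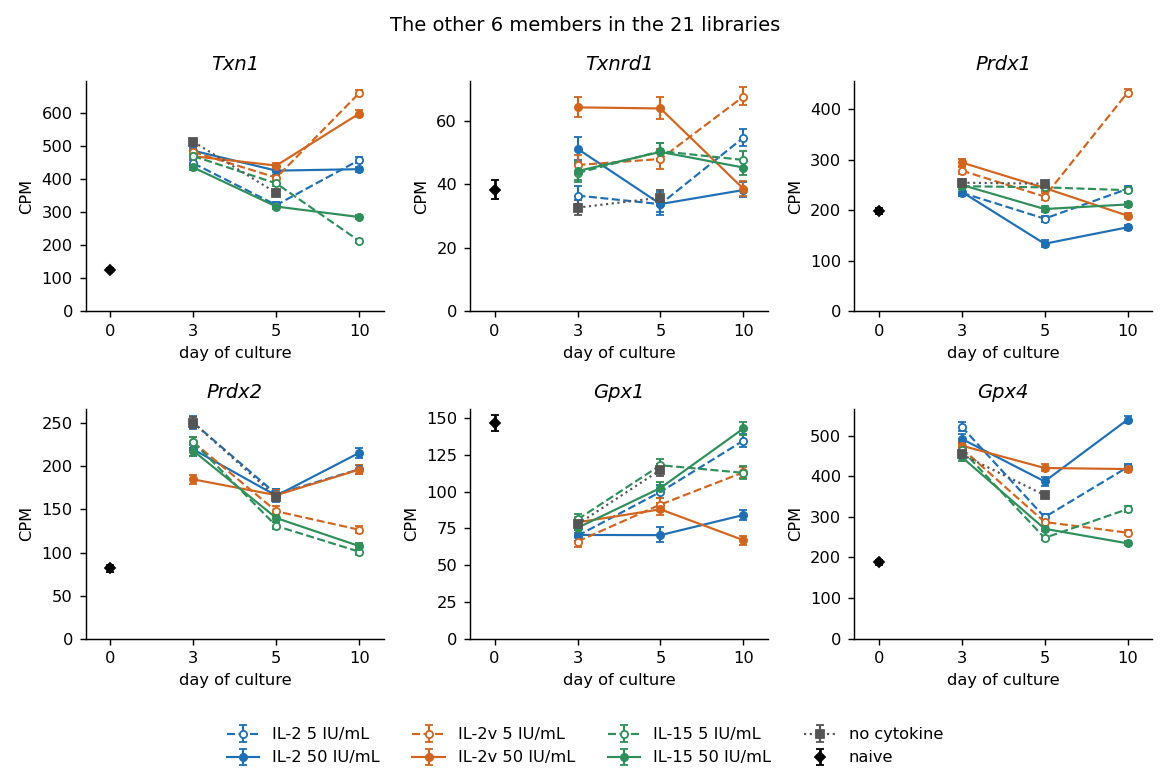
Levels of Txn1, Txnrd1, Prdx1, Prdx2, Gpx1 and Gpx4 (CPM, vertical axes starting at 0) against day of culture (days evenly spaced) in the 21 libraries, with exact Poisson 95% intervals and the same symbols for cytokine and dose in each panel. Naive cells are the lowest library for Txn1 (125 CPM), Prdx2 (81.8) and Gpx4 (188) and the highest for Gpx1 (146).

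Bead activation without cytokine set naive cells against day 3. Txn1 was 514 CPM after activation and 125 before, a log2 difference of 2.03 or 4.10-fold (counting interval of the log2 ratio 1.97 to 2.10). Prdx2 was 251 and 81.8 CPM, a difference of 1.60 or 3.06-fold, and Gpx4 was 453 and 188 CPM, a difference of 1.27 or 2.41-fold. These 3 of 7 members lay past the limit of 1 in size (2-fold), all higher, where 19.4% of the 6171 genes at 20 CPM or more in either library did so and 11.1% were past it upward. Gpx1 was lower, at 77.8 against 146 CPM (-0.90). Txnip was 273 and 314 CPM (-0.20), Prdx1 255 and 199 (0.36), and Txnrd1 32.6 and 38.2 (-0.22). Thioredoxin, 1 peroxiredoxin and the lipid peroxidase were thus high in the activated library, while thioredoxin reductase and the inhibitor were near the naive level.

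Naive cells also stood apart from all 20 activated libraries for 4 members. Their Txn1, Prdx2 and Gpx4 levels were under every activated level, as were those of 9.24% of genes. Their Gpx1 level was over every activated level, as for 13.4% of genes, although 50 IU/mL IL-15 on day 10 came close at 143 CPM (naive 146, intervals 139 to 147 and 141 to 152). Cycling cells, here cells holding at least 1 UMI of Mki67 or Top2a after thinning, made up 1.99% of naive cells and 50.8% on day 3. With all cells left out that held such a UMI before thinning (3.01% of naive cells and 60.0% on day 3), which leaves cells without a cycle-marker UMI, Txn1 and Prdx2 were still past the limit, Gpx4 was at 0.94, Txnip was at 0.31 and Prdx1 at -0.04, the last 2 with the opposite sign to that in all cells. A cell without such a UMI may still be in the cycle, because these transcripts can be missed at this depth or be low in some phases.

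Related genes were taken from 10 lists of 88 genes in all, covering other thioredoxin genes, other peroxiredoxins, the glutathione system, superoxide dismutases and catalase, the NRF2 pathway, NADPH supply, selenoproteins, alpha-arrestins, the Mondo and Max-like factors, and glucose uptake. The lists were chosen with earlier results of these data known, so counts of their genes are descriptions. On activation, 60 of them were measured above 20 CPM, of which 10 were past the limit upward and 3 downward. Of all 6171 genes, 19.4% were past it in either direction and 11.1% upward. Prdx4, the peroxiredoxin of the endoplasmic reticulum, was 73.6 CPM against 5.74 (3.47). Hk2, an inducible hexokinase, was 26.4 CPM after activation (3.19), Glrx, a glutaredoxin, 111 against 17.5 (2.60), and Tkt, the transketolase of the pentose phosphate pathway, 329 against 106 (1.63). Sod1, the cytosolic superoxide dismutase, was 197 against 67.7 (1.53), and Slc2a3, the GLUT3 glucose transporter, 62.1 against 22.3 (1.44). The others past the limit upward were the glutathione transferases Mgst3 (2.34) and Gsto1 (1.37), the thioredoxin-like Nxn (1.08) and Pgls, an enzyme of the pentose phosphate pathway (1.08). The 3 lower genes were Selenow (-1.48), Bach1, a repressor at NRF2 sites (-1.10), and Txndc11 (-1.03).

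Between days 3 and 5 without cytokine, none of the 7 members passed the limit, where 13.1% of 5785 genes did. Txn1 was 358 CPM on day 5 and 514 on day 3 (-0.52), Prdx2 164 and 251 (-0.61), Gpx4 353 and 453 (-0.36), and Gpx1 115 and 77.8 (0.55), so that each stood nearer to its naive level. Txnip was 289 and 273 CPM (0.08). In cells without a cycle-marker UMI the Txnip difference was -0.38. Of 58 related genes measured, 4 were past the limit upward and 6 downward. The higher genes were Selenow (1.54), Ccs, the copper chaperone of superoxide dismutase (1.51), Bach1 (1.08) and Ggct (1.03). The lower genes were Prdx4 (-3.05), Gstp1, a glutathione transferase (-1.65), Tkt (-1.51), Mgst3 (-1.40), Sod1 (-1.12) and Hk2 (-1.10).

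On day 3, Txnip was the member that set the high doses of IL-2 and IL-2v apart from no cytokine. It was 56.3 CPM with 50 IU/mL IL-2 against 273 without cytokine, a log2 difference of -2.26 or 4.85-fold lower (interval -2.38 to -2.18). With 50 IU/mL IL-2v it was 102 CPM, a difference of -1.42 or 2.69-fold lower (-1.49 to -1.36). These were the only 2 of 42 member values past the limit. In the IL-2 comparison 9.19% of genes were past it and 2.74% downward, and 1.06% of genes had a difference larger in size than that of Txnip. In the IL-2v comparison 9.57% were past it and 1.75% downward, and 3.26% had a difference larger in size. The 6 comparisons share the library without cytokine.

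At lower dose or with IL-15 on day 3, Txnip differed less from the same control. It was 231 CPM with 5 IU/mL IL-2 (-0.24; 0.248% of genes past the limit), 199 with 5 IU/mL IL-2v (-0.46; 0.282%), 278 with 5 IU/mL IL-15 (0.02; 0.427%) and 217 with 50 IU/mL IL-15 (-0.33; 1.08%). The value for 5 IU/mL IL-15 was within counting error of 0. Cycling shares differed too, at 50 IU/mL reaching 63.1% for IL-2 and 78.8% for IL-2v against 50.8% without cytokine. Within cells without a cycle-marker UMI, the Txnip differences were -2.27 for IL-2 and -1.52 for IL-2v at 50 IU/mL. There 73.8% and 86.9% of cells held a cycle-marker UMI before thinning, so the cells compared were the rest and may include cycling cells whose marker transcripts were missed.

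Txnrd1 was above the day 3 library without cytokine (32.6 CPM) in all 6 cytokine libraries, at 36.4 to 64.2 CPM. That shared control was the lowest of the 21 libraries for Txnrd1, and the median of all genes was also above 0 in the 6 comparisons (0.07 to 0.21), so the shared sign is not 6 independent observations. Its largest difference was 0.96 with 50 IU/mL IL-2v, just inside the limit, and it was 1.45 in cells without a cycle-marker UMI and 1.02 with at most 5% mitochondrial UMIs. The other values were 0.63 with 50 IU/mL IL-2, 0.49 with 5 IU/mL IL-2v, 0.43 and 0.40 with 50 and 5 IU/mL IL-15 and 0.15 with 5 IU/mL IL-2. Txn1 differed by -0.24 to -0.08 from this control, which was the highest day 3 library for Txn1, although in cells without a cycle-marker UMI it was higher with 50 IU/mL IL-2 (0.20) and 50 IU/mL IL-2v (0.14). Prdx2 was lowest with 50 IU/mL IL-2v, at 185 CPM (-0.44). Gpx1 differed by -0.23 to 0.06 and Gpx4 by -0.02 to 0.20.

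Of the related genes on day 3, 6 were past the limit upward and 4 downward among 61 measured with 50 IU/mL IL-2. Of all genes, 9.19% were past it there. Slc2a3 was 284 CPM against 62.1 (2.17), Hk2 138 against 26.4 (2.34), and Slc2a1, the GLUT1 glucose transporter, 77.2 against 23.1 (1.70). Myc was 225 against 104 (1.10), and Mxd4, an antagonist of Myc, 42.7 against 130 (-1.58). Mafg, a partner of NRF2 (1.14), and Txnl4a, a thioredoxin-like splicing protein (1.03), were higher as well, and Gstp1 (-1.88), Selenop (-1.70) and Mgst3 (-1.16) were lower. With 50 IU/mL IL-2v, where 9.57% of all genes were past the limit, 5 of 63 related genes were past it upward and 3 downward. These were Hk2 (1.67), Mthfd1, an enzyme of folate metabolism (1.58), Mafg (1.13), Myc (1.07) and Sephs2, an enzyme of selenoprotein synthesis (1.02), and downward Mxd4 (-3.23), Selenop (-1.36) and Mgst3 (-1.10). No more than 1 related gene was past the limit with any of the other 4 treatments: Hk2 was higher with 5 IU/mL IL-2v (1.59), and Gstp1 was lower in the libraries of IL-15 (-1.55 at 5 IU/mL, -1.95 at 50 IU/mL) and of 5 IU/mL IL-2 (-1.07), as it was with 50 IU/mL IL-2.

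On day 5, none of the 42 member values against no cytokine was past the limit, while 2.50% of genes were with 5 IU/mL IL-2, 24.0% with 50 IU/mL IL-2, 12.4% with 5 IU/mL IL-2v, 26.7% with 50 IU/mL IL-2v, 1.74% with 5 IU/mL IL-15 and 7.72% with 50 IU/mL IL-15. Txnip was higher than the 289 CPM of that control with 5 IU/mL IL-2 (517 CPM, 0.84), 50 IU/mL IL-15 (381 CPM, 0.40), 5 IU/mL IL-2v (346 CPM, 0.26) and 5 IU/mL IL-15 (303 CPM, 0.07). At 50 IU/mL it was lower both with IL-2v (187 CPM, -0.62) and with IL-2 (232 CPM, -0.31). With 5 IU/mL IL-2, 3.43% of genes had a difference larger in size than that of Txnip. At 50 IU/mL this share was 46.0% with IL-2v, 68.3% with IL-2 and 41.1% with IL-15. At 5 IU/mL it was 62.4% with IL-2v and 79.8% with IL-15. At 50 IU/mL the cycling shares were 59.9% for IL-2v and 46.9% for IL-2, against 7.90% without cytokine. Cells without a cycle-marker UMI had 267 CPM of Txnip with 50 IU/mL IL-2v, 290.2 CPM with 50 IU/mL IL-2 and 300.1 CPM without cytokine, so that the differences at the high dose were smaller there (-0.17 for IL-2v and -0.05 for IL-2).

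With 50 IU/mL IL-2 on day 5, Prdx1 was 133 CPM against 253 (-0.92) and Gpx1 70.4 against 115 (-0.70). In that comparison 27.8% of genes had a difference larger in size than that of Prdx1, and 39.3% than that of Gpx1. The Prdx1 value crossed the limit with TMM scaling (-1.06), with totals that leave out ribosomal protein and mitochondrial genes (-1.02), and in cells without a cycle-marker UMI (-1.02). Txnrd1 was higher with 50 IU/mL IL-2v (63.8 CPM against 35.7, 0.82), with both doses of IL-15 (0.48 each) and with 5 IU/mL IL-2v (0.41), and differed by -0.08 with either dose of IL-2. Gpx4 was lower with 5 IU/mL IL-15 (248 CPM against 353, -0.51). Txn1 was 0.30 and Gpx4 0.25 higher with 50 IU/mL IL-2v, but -0.04 and -0.09 with TMM scaling, which moved the median of all genes in that comparison by -0.39.

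Among related genes on day 5, 11 were past the limit upward and 9 downward of 56 measured with 50 IU/mL IL-2, and 14 and 5 of 60 with 50 IU/mL IL-2v. Against the library without cytokine, Slc2a3 was 3.53 higher for IL-2 and 2.22 for IL-2v at 50 IU/mL, Hk2 3.23 and 3.86, Prdx4 3.03 and 2.87, and Sod1 2.06 and 1.84. Slc2a1 was 2.51 and 2.13, Tkt 1.62 and 1.84, Hk1 1.60 and 1.21, Myc 1.43 and 1.502, and Mafg 1.16 and 1.55. Past the limit upward with IL-2 alone of these 2 libraries were Cat, the catalase gene (1.15), and Glrx (1.10). With IL-2v they were Mthfd1 (1.45), Sephs2 (1.25), Sephs1 (1.09), Txndc12 (1.07) and Pgd (1.01), and whether the 2 cytokines differed there was not tested. Ccs was -2.40 and -2.29 for IL-2 and IL-2v at that dose, Mxd4 -1.14 and -2.25, Selenow -1.11 and -1.68, and Taldo1, the transaldolase of the pentose phosphate pathway, -1.08 and -1.14. Lower with 50 IU/mL IL-2 were also the mitochondrial thioredoxin Txn2 (58.2 CPM against 121, -1.05), the mitochondrial glutaredoxins Glrx5 (28.3 against 92.9, -1.68) and Glrx2 (28.6 against 71.0, -1.28), Ggct (-1.42) and Secisbp2 (-1.25), and with IL-2v Selenop (-1.40).

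With 50 IU/mL IL-15 on day 5, 5 related genes of 53 were past the limit upward, namely Prdx4 (1.67), Myc (1.38), Sod1 (1.18), Tkt (1.11) and Hk2 (1.02), and 3 downward, namely Ccs (-1.31), Selenow (-1.10) and Mxd4 (-1.09). With 5 IU/mL IL-2v, 10 of 57 were past it upward, namely Hk2 (2.71), Prdx4 (2.08), Myc (1.90), Slc2a1 (1.73), Slc2a3 (1.58), Tkt (1.53), Hk1 (1.504), Sod1 (1.35), Cat (1.08) and Pgd (1.05), and 3 downward, namely Ccs (-1.54), Selenow (-1.46) and Mxd4 (-1.06). With 5 IU/mL IL-2 it was 1 of 52 (Prdx4, 1.63), and with 5 IU/mL IL-15 none of 52.

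Dose was compared within each cytokine in 3 pairs of equal day. Txnip was 56.3 CPM at 50 IU/mL IL-2 and 231 at 5 IU/mL on day 3, 232 and 517 on day 5, and 140.5 and 394 on day 10. It was lower at the high dose on each day, by 4.10-fold, 2.23-fold and 2.81-fold (log2 -2.02, -1.15 and -1.48, median -1.48). Txnip was the only member whose 3 differences shared a sign and whose median was past the limit, where 6.99% of 5879 genes met both conditions and 2.70% did so downward. The share of cells with a Txnip UMI at equal depth was 9.26% and 35.6% on day 3, 35.0% and 63.1% on day 5, and 23.3% and 54.0% on day 10. The direction and the size past the limit held under all 12 alternatives, with -1.34 under TMM scaling and -1.59 in cells without a cycle-marker UMI. Of these, dropping the expression filter cannot change a gene's difference, and using all barcodes gave the same median of -1.48.

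The other members showed no such step with IL-2. Gpx1 (median -0.50) and Prdx1 (-0.45) were lower at 50 IU/mL on days 5 and 10 and at 0.01 each on day 3. Txnrd1 was higher at 50 IU/mL on day 3 (0.48), at 33.7 CPM with either dose on day 5 and lower on day 10 (-0.51). Among 56 related genes, 4 were higher at 50 IU/mL, namely Slc2a3 (320 CPM on average against 75.9, median 1.98), Hk2 (114 against 32.5, 1.70), Sod1 (333 against 156, 1.46) and Slc2a1 (66.9 against 25.8, 1.34). The 3 lower genes were Selenop (-1.61), Mxd4 (-1.46) and Ccs (-1.46). Of all genes, 6.99% met both conditions.

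With IL-2v, Txnip was lower at 50 IU/mL on day 3 (102 CPM against 199, -0.96) and day 5 (187 against 346, -0.89) but not on day 10 (192 against 178, 0.11). No member met both conditions, which 3.01% of genes met. Prdx1 was lower at 50 IU/mL on day 10 (189 CPM against 433, -1.19) and Txnrd1 likewise (38.5 against 67.6, -0.80), whereas on days 3 and 5 both were higher at that dose (0.08 and 0.10 for Prdx1, 0.47 and 0.41 for Txnrd1). The Prdx1 median of 0.08 was -0.08 with TMM scaling. Gpx4 was higher at 50 IU/mL in all 3 pairs (0.02 to 0.68, median 0.55), as were 21.3% of genes, but in 2 of 3 with TMM scaling, with at most 5% mitochondrial UMIs and with totals that leave out ribosomal protein and mitochondrial genes. Of 60 related genes, Mafg was past the limit upward (1.16) and Mxd4 downward (-1.19).

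With IL-15, dose made little difference to Txnip, at 217 CPM for 50 IU/mL and 278 for 5 IU/mL on day 3 (-0.35), 381 and 303 on day 5 (0.33), and 427 and 411 on day 10 (0.06). No member met both conditions, which 1.05% of genes met, and no related gene did among 54 measured. The largest member differences were on day 10, for Gpx4 (235 CPM against 319, -0.44) and Txn1 (285 against 213, 0.42). Whether the Txnip dose step differed between cytokines was not tested.

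**Figure D3:**
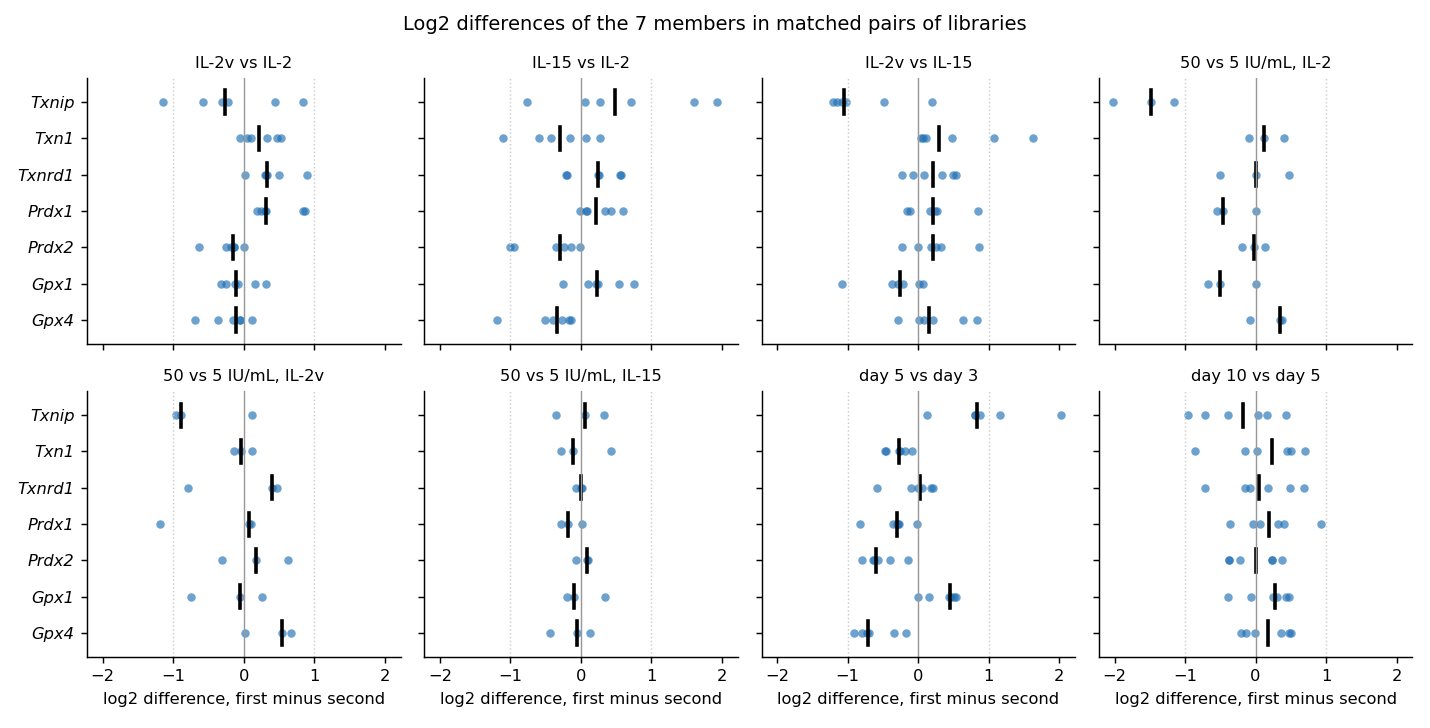
Log2 differences of the 7 members (horizontal axes, first named minus second) in pairs of libraries matched for the other 2 factors, with 1 point per pair (6 or 3 pairs), black bars for the median and dotted lines at 1 in size. All 3 Txnip points for IL-2 dose lie between -2.02 and -1.15, whereas the medians of the 6 other members in that panel lie between -0.50 and 0.35.

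IL-2v was set against IL-2 in 6 pairs of equal day and dose. No member met the conditions of an equal sign in all pairs and a median past the limit, which 1.32% of 5839 genes met. Prdx1 was higher with IL-2v in all 6 pairs, by 0.19 to 0.87 (median 0.31; means 278 and 199 CPM). Txnrd1 was higher in all 6 as well, by 0.01 to 0.90 (median 0.33; means 54.7 and 41.3 CPM), although the smallest difference, at 50 IU/mL on day 10, was within counting error, and 5 of 6 pairs were positive with TMM scaling, with at most 5% mitochondrial UMIs, without cells of high UMI counts and with the mean of single-cell CPM. A positive sign in all 6 pairs at any size was seen for 17.0% of genes. Both were most different at 50 IU/mL on day 5, with Prdx1 at 244 CPM against 133 and Txnrd1 at 63.8 against 33.7. The IL-2 library of that pair was the shallowest. Txn1 was higher in 5 of 6 pairs (median 0.22). Prdx1 was also higher with IL-15 than with IL-2 in 5 of 6 pairs (median 0.21), and Txnrd1 in 4 (0.25). With IL-2v against IL-15, Prdx1 (median 0.20) and Txnrd1 (0.21) were each higher in 4 of 6 pairs.

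Txnip did not order the 2 cytokines. It was lower with IL-2v at 5 IU/mL on day 3 (-0.22), day 5 (-0.58) and day 10 (-1.15, 178 against 394 CPM) and at 50 IU/mL on day 5 (-0.31). It was higher at 50 IU/mL on day 3 (0.84, 102 against 56.3 CPM) and day 10 (0.45, 192 against 140.5 CPM). The median of -0.26 became 0.12 when day 5 was left out. Mthfd1 (1.07) was the single related gene of 58 past the limit.

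Between IL-15 and IL-2, matched likewise for day and dose, no member met the conditions, which 2.19% of 5718 genes met. Txnip was higher with IL-15 in 5 of 6 pairs, with a median of 0.49 and a range of -0.77 to 1.93. The 3 pairs at 50 IU/mL gave 217 against 56.3 CPM on day 3 (1.93), 381 against 232 on day 5 (0.71) and 427 against 140.5 on day 10 (1.60). At 5 IU/mL the values were 0.26, -0.77 and 0.06, the negative one being day 5. The sign was thus the same on each day at the high dose and mixed at the low dose.

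Gpx4 (median -0.34, range -1.20 to -0.14) and Prdx2 (median -0.30, the difference at 50 IU/mL on day 3 being -0.01 and within counting error) were lower with IL-15 than with IL-2 in all 6 pairs, a sign pattern that 9.58% of genes had. Prdx2 was lower in 5 of 6 with TMM scaling and with totals that leave out ribosomal protein and mitochondrial genes. Gpx4 was 235 CPM against 539 at 50 IU/mL on day 10, and Prdx2 107 against 216. Txn1 was 213 CPM with IL-15 against 458 with IL-2 at 5 IU/mL on day 10 (-1.10), and was lower in 4 of 6 pairs. Among 56 related genes, Slc2a3 (-1.84; means 42.2 and 198 CPM) and Slc2a1 (-1.39; means 16.3 and 46.4 CPM), both glucose transporters, were past the limit and lower with IL-15.

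IL-2v against IL-15 gave the largest median of any member between cytokines. Txnip was lower with IL-2v in 5 of 6 pairs, with a median of -1.06 and means of 201 and 336 CPM. At 50 IU/mL the differences were -1.09 on day 3, -1.02 on day 5 and -1.15 on day 10. At 5 IU/mL they were -0.48, 0.19 and -1.20, so that the exception was day 5. Because of that pair Txnip did not meet the conditions, which 3.06% of 5810 genes met. It did so with TMM scaling (6 of 6, median -1.14) and without day 5 (4 of 4, median -1.12), whereas the median was -0.76 in cells without a cycle-marker UMI and -0.75 without day 10.

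Txn1 was higher with IL-2v than with IL-15 in all 6 pairs, by 0.04 to 1.63 (median 0.29), and in 5 of 6 with TMM scaling and with totals that leave out ribosomal protein and mitochondrial genes. A positive sign in all 6 was seen for 19.1% of genes. Its 2 largest differences were on day 10, at 662 against 213 CPM with 5 IU/mL and 599 against 285 CPM with 50 IU/mL. Of 59 related genes, Slc2a1 (1.24) and Slc2a3 (1.18) were past the limit upward and Mxd4 (-1.22) and Selenop (-1.11) downward. These 3 sets of cytokine pairs share libraries and are not independent of each other.

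Time was compared in 6 pairs of equal cytokine and dose. From day 3 to day 5, Txnip was higher in all 6, by 0.13 to 2.02, with a median of 0.84 and means of 180 and 328 CPM. The pairs were 231 to 517 CPM with 5 IU/mL IL-2, 56.3 to 232 with 50 IU/mL IL-2, 199 to 346 and 102 to 187 with 5 and 50 IU/mL IL-2v, and 278 to 303 and 217 to 381 with 5 and 50 IU/mL IL-15. The median stood inside the limit, and 5.55% of genes had a median larger in size. No member met both conditions, which 3.04% of 5912 genes met, and 12.5% of genes were higher in all 6 pairs. In cells without a cycle-marker UMI Txnip was higher in 5 of 6 pairs (median 0.57).

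Txn1 (median -0.27), Prdx1 (-0.30), Prdx2 (-0.60) and Gpx4 (-0.71) were lower on day 5 in all 6 pairs, as were 27.0% of genes. Prdx1 was lower in 5 of 6 with TMM scaling, in cells without a cycle-marker UMI, and with totals that leave out ribosomal protein and mitochondrial genes. The 6 libraries of each day did not overlap for Prdx2 (185 to 251 CPM on day 3, 131 to 168 on day 5) or for Gpx4 (447 to 522 and 248 to 420.1 CPM), a separation downward that 5.35% of genes showed. Gpx1 was higher on day 5 in 5 of 6 pairs (median 0.45). Among 58 related genes, Prdx4 was past the limit and lower (-1.15; means 41.3 and 89.4 CPM).

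From day 5 to day 10 no member met both conditions, which 1.69% of 5676 genes met. Txnip was higher in 3 pairs and lower in 3 (median -0.17). It was higher with IL-15 at 5 IU/mL (303 to 411 CPM, 0.44) and 50 IU/mL (381 to 427, 0.17), and lower with 5 IU/mL IL-2v (346 to 178, -0.96), 50 IU/mL IL-2 (232 to 140.5, -0.72) and 5 IU/mL IL-2 (517 to 394, -0.39). With 50 IU/mL IL-2v it was 187 and 192 CPM, within counting error. Txn1 was 387 CPM on day 5 and 213 on day 10 with 5 IU/mL IL-15. The same dose of IL-2v gave 405 and 662 CPM. Gstp1 was the single related gene of 56 past the limit (1.33; means 38.4 and 14.7 CPM).

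Within every library, cycling cells were then set against the other cells, so that both classes shared 1 culture. Cycling cells here held at least 1 UMI of Mki67, a proliferation marker, or Top2a, a topoisomerase of dividing cells. Unlike the cycling shares above, these classes were set before thinning, so deeper cells were more likely to count as cycling. Txnip was lower in cycling cells of all 21 libraries, with differences of -1.01 to -0.08, a median of -0.57 and means of 221 and 319 CPM. A negative sign in all 21 was seen for 2.29% of 5770 genes, 99.5% of genes had a higher signed median, and the median gene was at 0.07. Txnip was not past the limit, which 3.15% of genes met in either direction and 0.0173% (1 gene) met downward. On the log2 scale the largest gap was with 5 IU/mL IL-2v on day 3 (158 CPM in cycling and 321 in other cells), and the smallest with 5 IU/mL IL-15 on day 10 (391 and 412 CPM). Counting intervals were not computed for these differences, and the smallest rested on 284 cycling cells.

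The Txnip sign held in all 21 libraries when each cell was thinned to 2000 UMIs (median -0.49) and in 20 of 21 when cells over 2 times the library's median UMIs were left out and when the CPM of single cells were averaged. Shares of cells with a Txnip UMI had overlapping intervals between the classes in 6 of 21 libraries, including naive cells, of which 89 counted as cycling at that depth. In naive cells the share ran the other way, at 46.1% of cycling and 44.7% of other cells. The dose difference of IL-2 on day 3 was present in both classes, since cells without a cycle-marker UMI had 80.5 CPM with 50 IU/mL against 332 with 5 IU/mL, and cycling cells 50.2 against 188 CPM.

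**Figure D4:**
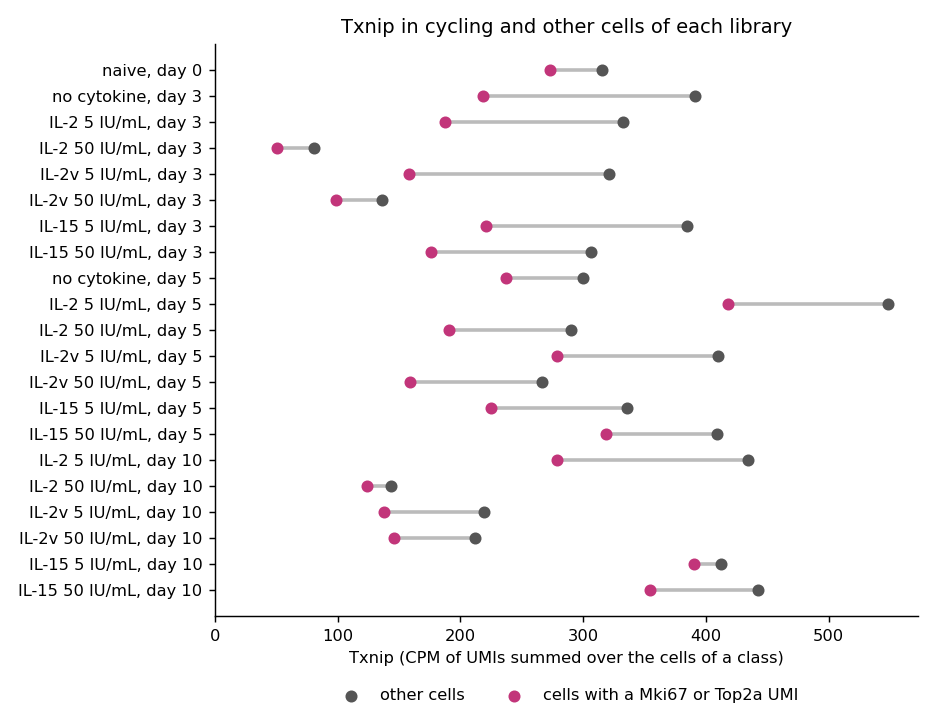
Txnip level (CPM, horizontal axis) in cells with a Mki67 or Top2a UMI (pink) and in other cells (grey) of each of the 21 libraries (rows). Each point sums the cells of a class in 1 library, and the pink point lies to the left in all 21, with log2 differences from -1.01 (158 against 321 CPM) to -0.08 (391 against 412 CPM).

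The other members split in cycling cells. Prdx1 (median 0.45) and Txnrd1 (0.30) were higher in cycling cells of 20 libraries, Gpx4 (0.25) of 19 and Txn1 (0.28) of 17. Of all genes compared, 13.2% had a higher median than Prdx1, 21.2% than Txnrd1, 22.8% than Txn1 and 24.6% than Gpx4. Txnrd1 was lower in cycling cells of 4 libraries with TMM scaling, and of 4 with totals that leave out ribosomal protein and mitochondrial genes. For Txn1 the 4 exceptions were the 50 IU/mL IL-2 and IL-2v libraries of days 3 and 5, with differences of -0.11 to -0.05. At equal depth, Txn1 was lower in cycling cells of 8 libraries. Gpx1 (median -0.32) and Prdx2 (-0.13) were lower in cycling cells of 18 libraries, and 95.7% and 81.6% of genes had a higher median.

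Likeness between genes is given as Pearson's r of log2(CPM + 1) over the 21 libraries, which share days and cytokines, so r is a description. The genes most like Txnip were Zfp945 (0.89), Rgs10 (0.88), Mndal (0.87), Tmem71 (0.86) and Rasa3 (0.86), and those most opposed were Nudt5 (-0.94), Pdia6 (-0.93), Ndufab1 (-0.92), Uqcrq (-0.90) and Ascc2 (-0.90), where the median gene had -0.16. For the others the nearest were Rps27l for Txn1 (0.88), Pwp1 for Txnrd1 (0.88), Mrpl42 for Prdx1 (0.93), Cox4i1 for Prdx2 (0.96), Acp5 for Gpx1 (0.90) and Mcrip1 for Gpx4 (0.91). Among the members, Prdx2 went with Gpx4 (0.91) and Txn1 (0.73), and Txnrd1 with Prdx1 (0.64). Gpx1 ran opposite to Prdx2 and Gpx4 (-0.78 each) and had the only positive r with Txnip (0.58). Txnip had r of -0.63 with the cycling share, -0.46 with median UMIs per cell and 0.60 with the ribosomal protein share of UMIs, whose part in the Txnip levels was not tested across libraries.

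Arrdc4, the closest relative of Txnip, ranged from 1.03 to 12.7 CPM, Arrdc3 from 3.59 to 30.6 and Arrdc1 from 29.4 to 48.9, and Arrdc1, the only alpha-arrestin of this list at 20 CPM or more on average in the comparisons, was past the limit in none of them. The others were not compared. Mlxip, which encodes MondoA, ranged from 14.1 to 31.8 CPM and its partner Mlx from 24.3 to 44.8. Srxn1, the sulfiredoxin that repairs peroxiredoxins, ranged from 0 to 8.21 CPM.

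Some levels may hold reads of other transcripts. Txnip shares 606 exonic bases, 19.4% of its exonic length, with the antisense gene Gm15441, listed at 1.54 to 4.48 CPM, and Prdx2 shares 5.80% with Rnaseh2a and 5.67% with Junb on the opposite strand. Whether counting used strand is not given in the sources used here. Near-identical copies (at least 90% identity over at least 200 bases) that are not among the gene symbols of the files exist for Prdx1 (3 copies), Prdx2 (2), Gpx4 (2) and Txn1 (1), so these values are uncertain to the extent that reads were split or dropped. For Txnip the single such match was Gm15441 itself, and none was found for Txnrd1 or Gpx1.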

How the data were processed

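The authors deposited UMI counts per gene and cell for 21 libraries, as whole numbers without normalisation; Cell Ranger, Seurat (3.0.2 and 4.0.1) and the mm10 build are named in the submitters' processing notes. Strand and multi-mapping settings are not given in the sources used here. Cells under 1000 UMIs or 500 genes, or above 10% mitochondrial UMIs, were left out (2 cells). No doublet caller was run, and leaving out cells above 2 times the median UMIs was an alternative. Counts were summed per library, scaled to CPM and compared as log2(CPM + 1) for genes at 20 CPM or more on average in either arm. A single pair was counted past the limit at a difference of 1 or more in size, and a set of matched pairs where the sign agreed in all pairs and the median reached 1. Each group was 1 library and no test was run, and exact 95% intervals (Poisson for levels, Clopper-Pearson for shares) cover counting error only. The procedure was tested on simulated counts with known changes and counting error only, which leave out the spread between cultures. The alternatives changed the cell filter, scaling (TMM of edgeR 4.0.16, or totals without ribosomal protein and mitochondrial genes), cell weights, pseudocount (10), expression filter, cell cycle class, thinning and days. All 7 genes and, from each related list, up to 4 past the limit in a comparison are named. Members and lists were chosen with earlier results of these data known. Analysis used Python 3.11.15, numpy 2.4.6, scipy 1.17.1, pandas 2.3.3 and R 4.3.3. Day 7, named in the growth protocol, was not analysed here.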

Additional observations from a re-analysis of the deposited data

How the results depend on the processing

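For cytokine against no cytokine on day 5, 0 member values were past the limit, and 1 was with TMM scaling, with totals that leave out ribosomal protein and mitochondrial genes, and in cells without a cycle-marker UMI (Prdx1 with 50 IU/mL IL-2 each time). The 3 values lay at -1.06, -1.02 and -1.02. For IL-2v against IL-15, 0 members met the conditions, and 1 did with TMM scaling and without day 5 (Txnip). The median share of cells with a Txnip UMI was 42.6% at 2000 UMIs per cell, 24.9% at 1000 and 63.9% without thinning. Counts of members past the limit and other main values stayed within 1.5 times in 131 of the recomputed cases and moved in these 7. A change of just 1.5 times counted as staying, so some calls differed among those 131. On activation, Gpx4 was not past the limit in cells without a cycle-marker UMI. With 50 IU/mL IL-2v on day 3, Txnrd1 was past it with at most 5% mitochondrial UMIs (1.02) and in cells without a cycle-marker UMI (1.45). Of the single log2 differences of members, 1321 stayed within the spread between pairs (for a single pair, the counting interval) and 273 moved beyond it. No value past the limit changed sign, and 89 values inside it did. TMM scaling moved the median of all genes most with 50 IU/mL IL-2v on day 5 (-0.39). No analysis paired by replicate was possible because the labels give no replicate numbers to serve as a block. The pairs matched for day, dose or cytokine are of different conditions and not replicates, and a test that takes them as repeats was not run. Without repeat cultures, the spread between cultures, which the intervals leave out, was not measured.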
